A study of Mus musculus with 173 samples.

Results

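The dentate gyrus is the entry region of the hippocampus, where granule neurons lie beside interneurons, astrocytes, oligodendrocytes and their precursors, vessels and microglia, and where neural stem cells persist in the adult. The study profiled quiescent stem cells of this region and their progeny. It is known, as background, for a reporter mouse in which Nestin regulatory sequence drives a nuclear cyan fluorescent protein; the labels used here name no transgene, and only a row for eCFP in the table shows that its sequence was measured. All 172 libraries in the table came from the dentate gyrus of C57BL/6 mice of 8 to 12 weeks, from total RNA amplified with the NuGEN Ultralow V2 protocol, with no treatment named in the labels. By the first letter of their titles they form 3 classes: 26 N, 4 R and, for all others, C. The libraries described here are the 4 called R1 to R4, set against the 26 called N1 to N26. What the letters C, N and R stand for is not given in the sources used here, and strain, age, region and protocol are the same for all 3 classes.

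The unit is TPM, a length-scaled share of a library's transcripts, so the depth behind each value is unknown. Values were compared as log2(TPM + 1), and "higher" or "lower" below means that the R mean lay at least 2 log2 units above or below the N mean. The labels name no animal, so R and N each count as 1 sample: no test was possible, no p-value is given, and every SD is between libraries. A difference at 1 gene in a mixed sample could come from more cells of a type or from more RNA per cell, and these cannot be told apart. Genes listed at 0 may be failed estimates, and are only said to be listed at 0.

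Each R library carried genes of several cell types together, although the labels call each a single cell. Neurons are recognised by genes of synapse, axon and excitability, astrocytes by uptake transporters and lipid carriers, and oligodendrocytes by myelin proteins. Snap25 (a synaptic fusion protein), Slc1a3 (a glial glutamate transporter) and Mbp (a myelin protein), a trio chosen after the values were seen, were all at a TPM of at least 100 in 4 of 4 R libraries. In N this held for 1 of 26 libraries (N10), and in C for 2 libraries. At a minimum of 10 it held for 4 of 4 R, 6 of 26 N and 7 C libraries. Of 16 lists of cell type markers, a library was counted as carrying a list when at least 3 members had a TPM of at least 10. R1, R2, R3 and R4 carried 6, 7, 9 and 4 lists, and the N libraries carried 2 to 7 with a median of 3. N10 was the N library with 7, so the ranges overlapped. R4, with the fewest lists in R, also had the fewest genes in R. The count is not a count of cell types, because several lists are of neurons. In R4 the lists were the pan-neuronal, GABAergic, glutamatergic and stem cell lists, and every N library but N25 also carried the stem cell list. R1, R2 and R3 carried the astrocyte list as well. Whether an R library held more than 1 cell, or RNA from other cells, was not tested, and every result below is about these libraries and not about a cell type.

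**Figure D1:**
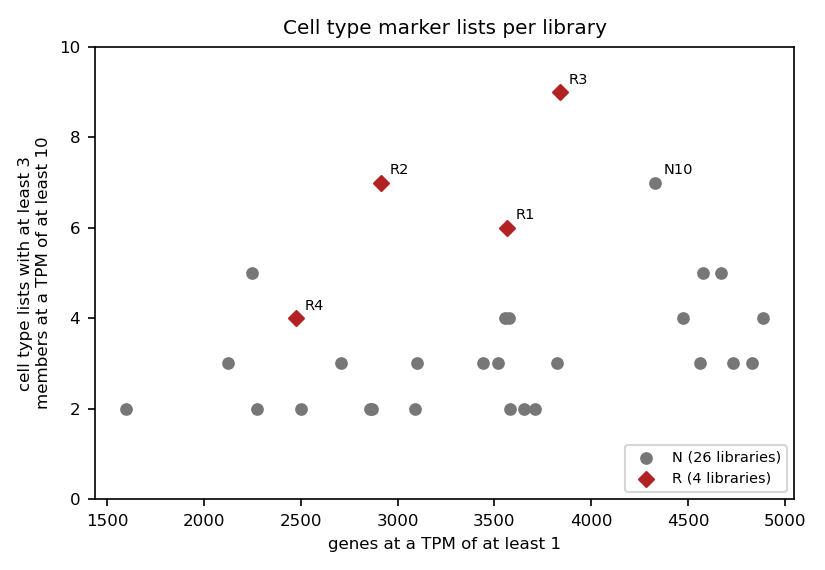
Number of cell type marker lists with at least 3 members at a TPM of at least 10 (vertical axis) against the count of genes that reached a TPM of 1 (horizontal axis), 1 point per library. R1, R2 and R3 carried 6, 7 and 9 lists, while N libraries with similar numbers of genes carried fewer; R4 (4 lists) lay among the N libraries.

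In R1 to R4, 3565, 2916, 3838 and 2476 genes reached a TPM of 1. In N this number ran from 1600 to 4885, with a median of 3565, so the R libraries lay inside the N range. The row for eCFP stood at 107.9, 15.7, 8.32 and 5.01 TPM in R1 to R4 and at 17.3 to 1306 TPM in N (median 44.6). R2, R3 and R4 were below every N library and R1 was above the N median. The C median was 8739 TPM.

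After a filter that kept genes at a TPM of at least 1 in at least 3 of the 30 libraries, 10016 of 23307 genes were compared. A gene could pass through the R libraries alone or through the N libraries alone, and the list shares and medians below include such genes. R was higher for 1394 of them (13.9%) and lower for 493 (4.92%), and the median difference over all genes was -0.29. With log2 of the mean TPM in place of the mean of log2 values, the median of all genes was -1.33 and lower calls outnumbered higher ones, 4244 against 1368, so the balance of directions depends on the averaging. Of the 1394 higher genes, 436 were at a TPM of at least 1 in all 4 R libraries, 467 in 3, 461 in 2 and 30 in 1. Of the 493 lower genes, 266 were under a TPM of 1 in all 4. A stricter count asks for no overlap at all. For 21 genes (0.21%) the lowest R value was above the highest of the 26 N values. For 0 genes (0%) the highest R value was below the lowest N value. A gene could be wholly below N only if it was above 0 in all 26 N libraries. To be wholly above N it had to be above 0 only in the 4 R libraries. The 0 and the 21 therefore cannot be compared as a balance of directions. Leaving out R1, R2, R3 or R4 gave 34, 33, 38 and 34 genes wholly above N, the 21 among them each time. The number wholly below N became 2 without R1, 1 without R3 and 1 without R4. A range over fewer libraries cannot widen, so these numbers could hardly fall and are no check of the 21 genes.

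The N libraries were a mixture, and R was set against its parts as well as its mean. Clustering of the N libraries on genes outside the lists gave 5 clusters. Cluster 1 (9 libraries) was oligodendrocyte lineage-like, with Opalin, Mbp, Cldn11 and Cnp among its leading genes, although N11 in it had an astrocyte list mean of 7.47. Cluster 2 (8 libraries) had the highest endothelial list mean, 5.88, and was led by Ly6a, Fxyd5, Pltp and Car4. Cluster 3 (5 libraries: N8, N9, N13, N18 and N19) had the highest pan-neuronal list mean, 4.89, with Reln, Gap43 and Cd24a among its leading genes. Cluster 4 (3 libraries) was mural-like, led by Tagln, Acta2 and Myh11 with a list mean of 7.29. Cluster 5 was N1 alone and stays unnamed.

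Gene by gene, the R mean lay within the span of the 5 cluster means for 7362 genes (73.5%), above the highest cluster mean for 2135 (21.3%) and below the lowest for 519 (5.18%). R was at least 2 above every cluster for 534 genes (5.33%) and at least 2 below every cluster for 14 (0.14%), or for 0.40% of genes without R3. The other 860 higher genes came within 2 of at least 1 cluster. Of all 1394 higher genes, 474 (34%) were less than 2 above cluster 3, against 277 (19.9%) for cluster 1, 169 (12.1%) for cluster 4 and 68 (4.88%) for cluster 2. Cluster 3 was thus the multi-library cluster closest to R in the genes that R had more of. It was also the cluster that R lay below at the most genes: R was at least 2 below it for 1717 genes, against 1149 for cluster 1, 981 for cluster 4, 924 for cluster 5 and 575 for cluster 2. In its libraries N8, N9, N13, N18 and N19, 4672, 4830, 4733, 4579 and 3517 genes reached a TPM of 1, against 2476 to 3838 in R. Whether both counts follow from that was not tested.

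**Figure D2:**
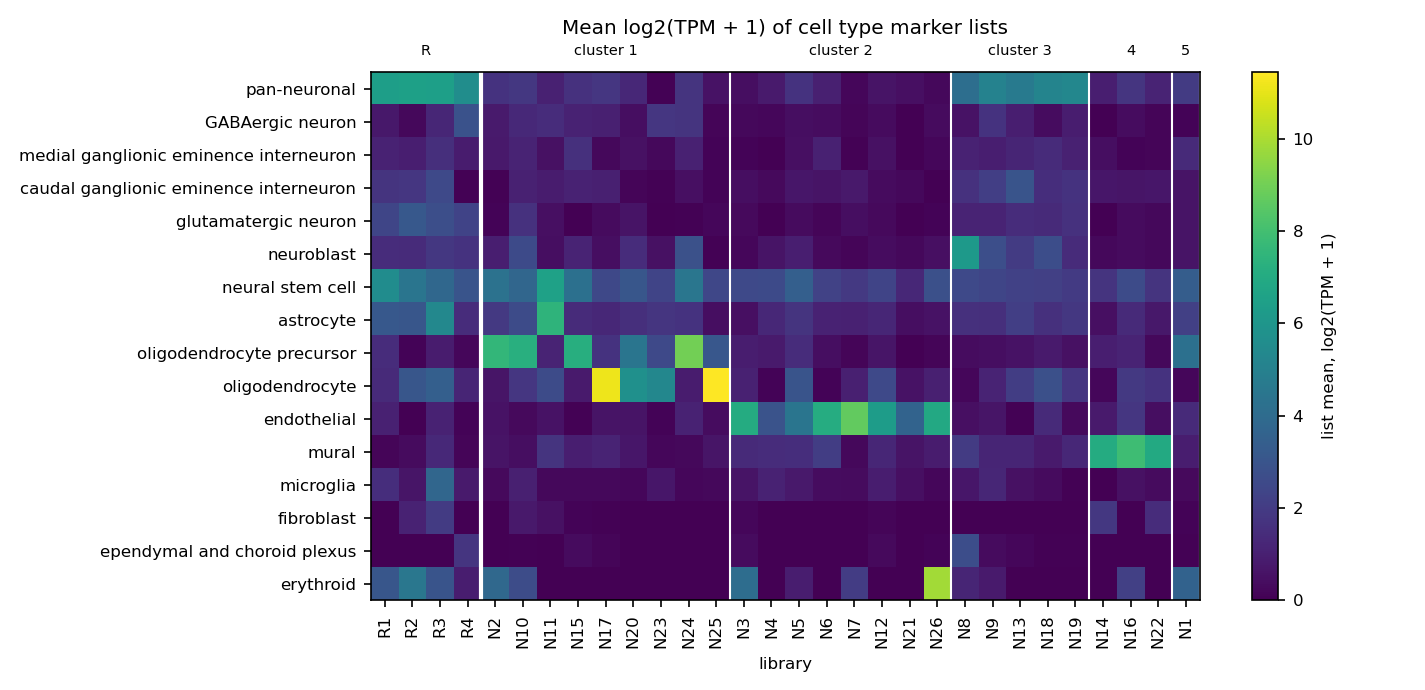
Mean log2(TPM + 1) of the members of 16 cell type marker lists (rows) in each library (columns), with the 4 R libraries first and the N libraries ordered by cluster (1 to 5). In R the pan-neuronal list is high (5.63 to 6.49), while in N it runs from 0.07 to 5.31. The stem cell list is at 2.99 to 5.55 in R (N median 2.48). The astrocyte list is above the N median of 1.47 in R1, R2 and R3 and at 1.45 in R4. The oligodendrocyte list is above the N median of 1.41 in R2 and R3 and below it in R1 and R4.

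Neuronal genes were higher in R. In the pan-neuronal list 10 of 14 compared members were higher in R and 0 lower, against 13.9% of all genes higher, and the list's median difference was 4.76. Its list mean was 6.40, 6.49, 6.47 and 5.63 in R1 to R4 and 0.07 to 5.31 in N, with N19 highest, so the classes did not overlap. Snap25 stood at 1734, 5746, 4579 and 1934 TPM in R1 to R4. Only N19 (5181 TPM) reached the R range, and the N median was 5.73 TPM. Eno2, the neuronal enolase, stood at 1074, 1140, 866 and 292 TPM, with an N median of 1.20 and a highest N value of 889 TPM, again in N19. Against cluster 3 alone the median difference of the list was 1.58, while it was 5.31, 6.36 and 6.06 against clusters 1, 2 and 4. Of these 4 clusters, the difference was smallest against the one with the highest pan-neuronal list mean.

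Neurofilament genes were low in cluster 3 too. Nefl, the light chain of the filaments that fill large axons, stood at 483, 136.1, 312 and 1648 TPM in R1 to R4, and no N library exceeded 3.25 TPM. Nefm, the medium chain, stood at 133.9, 351, 156 and 147 TPM in R, with a highest N value of 1.82 TPM. Their differences were 8.42 and 7.32, with R means of 8.75 ± 1.50 and 7.51 ± 0.64 (SD, n = 4). Cluster 3, whose Snap25 mean was 9.84, was at 0.49 for Nefl and 0.19 for Nefm. The heavy chain Nefh was at or under 0.78 TPM in every R library. In the axonal cytoskeleton list as a whole 10 of 15 compared members were higher in R, 0 were lower, and the median difference was 3.30. Tubb3, Stmn2 and Ank3, a tubulin, a tubulin-binding protein and the organiser of the axon's initial segment, were each near or at 0 in at least 1 R library, so the list was not uniform among the 4.

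Genes of transmitter release were also high in R. Of 22 compared members of the synaptic vesicle list, 15 were higher in R and 0 lower, with a median difference of 2.90. Nsf, the ATPase that recycles fusion complexes, stood at 667, 1591, 2506 and 2662 TPM against at most 73.7 TPM in N. Cplx2, a complexin that clamps vesicle fusion, stood at 561, 542, 268 and 1443 TPM against at most 50.4 TPM. Neither gene overlapped between R and N, and each was at least 2 above every cluster. Other release genes were patchy in R: Syn1 only reached 61.5 TPM in R1, and Syngr1 only reached 793 TPM in R2. Vamp1, Stx1a and Sv2b were listed at 0 in all 4 R libraries and reached a TPM of 1 in 0, 1 and 2 N libraries, so these rows do not tell R and N apart.

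**Figure D3:**
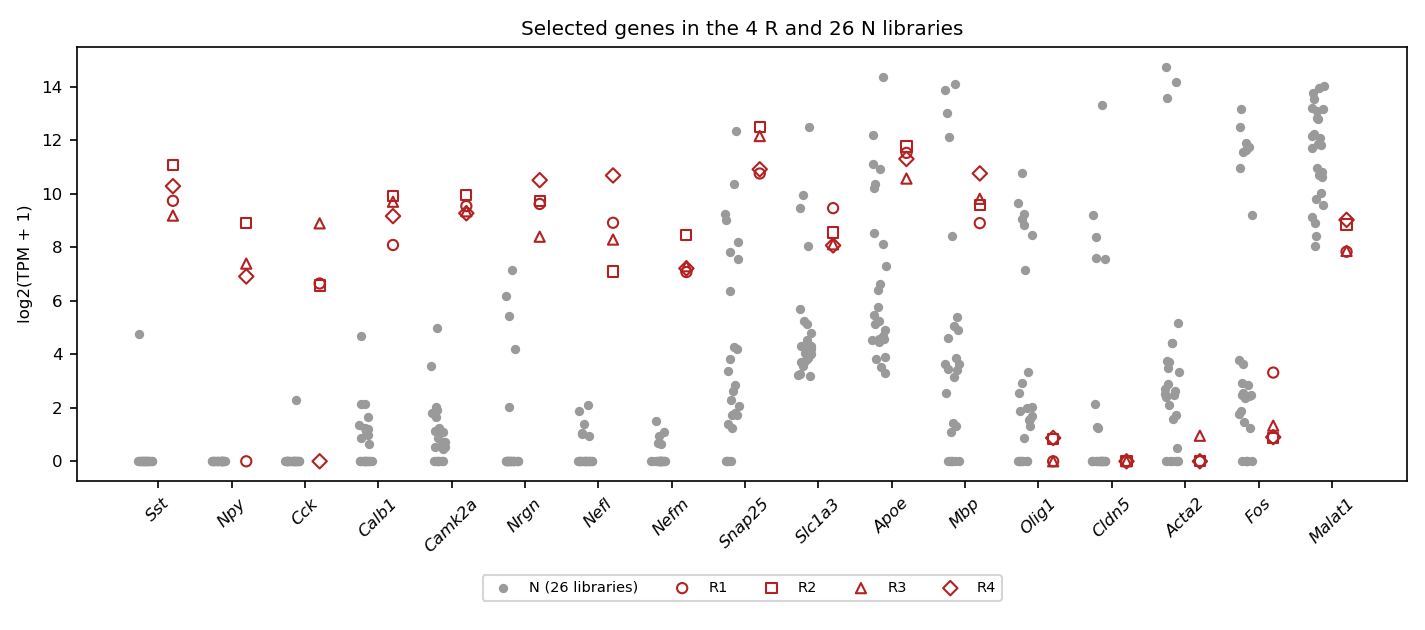
log2(TPM + 1) of 17 genes, 1 point per library (grey: the 26 N libraries; red symbols: R1 to R4). For Sst, Calb1, Camk2a, Nrgn, Nefl and Nefm all 4 R points lie above all N points; Cldn5 is listed at 0 in every R library, and Malat1 is low in R.

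Sst had the largest difference of all named genes of the lists, and it was the 1 neuropeptide gene at a TPM of at least 1 in all 4 R libraries. Sst, the inhibitory peptide somatostatin of a class of hippocampal interneurons, stood at 854, 2153, 582 and 1249 TPM in R1 to R4. In N it was listed at 0 in 25 of 26 libraries and stood at 25.9 TPM in N5. Every R library was above every N library, the R mean was 10.07 ± 0.80 (SD, n = 4) and the difference 9.89. The Sst promoter is shown because of that difference and because its upstream element is a textbook example of regulation by cyclic AMP. The stretch ends at the base before the transcription start (RefSeq sequence, build GRCm38.p6, chr16:23890845-23890952, minus strand, 5′ to 3′), with the palindrome TGACGTCA in capitals.
Sst: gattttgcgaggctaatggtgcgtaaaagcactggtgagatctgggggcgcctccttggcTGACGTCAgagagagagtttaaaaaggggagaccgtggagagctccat
The element lies 48 to 41 bases before the start. The same 8 letters, which read alike on both strands, occur in the 250 bases before the start in 439 of 27025 promoters (1.62%). Of the 21 genes without overlap, 13 had a promoter in the table, and Sst was the 1 that held the element. The match is a description of this window, not evidence of binding in these libraries.

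Other peptides were high in some R libraries. Npy, neuropeptide Y, was listed at 0 in R1 and stood at 484, 167 and 119.4 TPM in R2 to R4, and it was listed at 0 in all 26 N libraries. Cck, cholecystokinin, stood at 99.3, 94.2 and 476 TPM in R1 to R3 and was listed at 0 in R4, with 3.85 TPM as its highest N value (N22). Penk and Tac1, the genes of enkephalin and substance P, were at 252 and 322 TPM in R3, and of these R4 had Penk alone, at 81.1 TPM. In the neuropeptide list 4 of 6 compared members were higher in R, with a median difference of 4.34, and 10 of its 17 members were listed at 0 in all 4 R libraries, among them Vip, Cort, Crh and Pnoc. The higher members Sst, Npy, Cck and Penk reached a TPM of 1 in 1, 0, 1 and 2 N libraries. None would have passed the filter on N alone, so this share and median partly follow from the filter. In the list for peptide processing and dense-core granules 5 of 12 compared members were higher and 0 lower. Cpe, the carboxypeptidase that trims peptide precursors, stood at 2908, 2477, 414 and 559 TPM in R1 to R4. Its highest N values were 1688 TPM (N11) and 1482 TPM, so only R1 and R2 were above N. Against cluster 3 the median of this list was -0.62, so R was not above the N libraries that carried granule genes such as Scg2.

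The peptides were not accompanied by a full set of interneuron genes. Gad1, the main GABA-synthesising enzyme, was listed at 0 in R1 and R2 and stood at 93.1 and 467 TPM in R3 and R4, with its highest N value, 776 TPM, in N15. In the GABAergic neuron list 2 of 5 compared members were higher, Gad1 among them, and 0 lower, with a median difference of 1.67. Gad2 was at or under 0.75 TPM in every R library. Slc32a1 (the vesicular GABA transporter), Lhx6 (a transcription factor of interneurons from the medial ganglionic eminence) and Dlx1, Dlx2, Dlx5 and Dlx6 were listed at 0 in all 30 libraries, so these rows do not tell R and N apart. Pvalb was listed at 0 in all 4 R libraries and reached 935 TPM in N1. Reln, which led cluster 3, was at or under 0.13 TPM in R. Of the 21 genes of the medial ganglionic eminence list, 9 were listed at 0 in all 4 R libraries, 2 of 12 compared members were higher (Sst and Npy), near the 13.9% of all genes, and the median difference was -0.46. Of the caudal list 3 of 8 were higher (Cck, Calb2 and Lamp5) and 2 lower (Nr2f2 and Ndnf). Calb2, the calcium buffer calretinin, stood at 590, 154, 113.3 and 0 TPM, within an N range that reached 873 TPM in N13.

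Genes of glutamatergic neurons were present in the same libraries as Sst. Camk2a, the kinase subunit of excitatory synapses, stood at 745, 992, 651 and 619 TPM in R1 to R4 against at most 30.8 TPM in N (N8). Nrgn, a calmodulin-binding protein of forebrain excitatory neurons, stood at 787, 851, 336 and 1459 TPM against at most 140 TPM (N10). Neither gene overlapped between the classes, and their differences were 8.56 and 8.61. Transcription factors differed more among the 4. Neurod2 stood at 61.5, 91.7, 0.38 and 523 TPM, with an N maximum of 6.23 TPM. Neurod6 stood at 843 and 199 TPM in R2 and R3 and was listed at 0 in R1 and R4. Prox1, the granule neuron factor, stood at 0, 9.35, 90.3 and 0.39 TPM. In the neuroblast list 2 of 8 compared members were higher (Nnat and Neurod1) and 0 lower, with a median difference of -0.30. Slc17a7, the vesicular glutamate transporter of cortex and hippocampus, was low at 5.94, 3.87, 2.01 and 35.1 TPM, but listed at 0 in 25 of 26 N libraries. In the list 6 of 12 compared members were higher and 0 lower, the median difference was 1.93, and the list mean of R (2.30 to 3.17) lay above every N library (0 to 1.64, N10 highest). Of the higher members, Slc17a7, Neurod2, Neurod6 and Prox1 reached a TPM of 1 in 1, 2, 1 and 2 N libraries. These would not have passed the filter on N alone, so the share and median partly follow from the filter. The median was 1.79 to 2.42 against each cluster, cluster 3 included. Slc17a6, Tbr1 and Tdo2 were listed at 0 in all 4 R libraries.

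Calcium-handling genes were higher as a group: 11 of 15 compared members were higher in R and 0 lower, with a median difference of 4.30. Calb1, the buffer calbindin of granule cells and some interneurons, stood at 271, 962, 834 and 574 TPM in R, against 25 TPM in N1 and at most 3.46 TPM in the other N libraries. Ppp3ca, the catalytic subunit of calcineurin, stood at 482, 2786, 991 and 5623 TPM, with R1 inside the N range (highest 931 TPM, N1) and R2 to R4 above it. Hpca and Hpcal4, calcium sensors of the hippocampus, reached 2054 TPM in R4 and 1829 TPM in R2 but were at or under 0.59 TPM in R1.

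Receptors and channels were uneven among the 4 libraries. Gria1, an AMPA receptor subunit, stood at 358, 359, 661 and 171 TPM, with an N median of 0.50 and a highest N value of 438 TPM (N8). Gria2, its partner subunit, stood at 904, 713, 1255 and 2.92 TPM, so R4 had Gria1 almost without Gria2. In the GABA receptor list 6 of 11 compared members were higher and 0 lower, with a median difference of 3.16. Gabrb2 was at 338, 236, 40.5 and 36.2 TPM, while Gabra5 was at 318, 3.09, 0 and 1391 TPM and Gabra4 at 0, 0, 134.01 and 450 TPM. In the glutamate receptor list 3 of 10 were higher, in the sodium channel list 2 of 7, in the potassium channel list 2 of 10 and in the calcium channel list 1 of 5, with 0 lower in each. The shares of the potassium and calcium channel lists were near the 13.9% of all genes that were higher. Kcna1, an axonal potassium channel, stood at 98.4, 77.4, 10.3 and 54.6 TPM and was listed at 0 in 21 N libraries, but reached 165 TPM in N17. In the synaptic adhesion list 6 of 13 compared members were higher in R and 0 lower, with a median difference of 1.05. Against the clusters that median ran from -0.32 (cluster 1) to 1.84 (cluster 2), with 0.44 against cluster 3, and 0 members were at least 2 above every cluster.

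Among genes of no list, those furthest above N included Cpne6, Sult4a1, Them4, Ncs1, Slc25a11, Rrp1, Atp6v1g2, Pcp4 and Chn1, with differences from 8.98 down to 7.79. Cpne6, a calcium-dependent membrane-binding copine of the hippocampus, stood at 1618, 1238, 359 and 365 TPM in R1 to R4 and at most at 5.37 TPM in N. It had the widest gap of all genes between the lowest R and the highest N value, 5.82 log2 units. Ncs1 is a neuronal calcium sensor, Chn1 a neuronal regulator of Rac and Pcp4 a calmodulin regulator. Pcp4 was not particular to R among neuronal libraries: N19 had 4913 TPM, above the 672 to 2147 TPM of R. Other genes without overlap included Arf3, Ccsap, Rgs14, Rbfox1, R3hdm4, Mbtps1, Aldoa, Aldoart1 and Aldoart2, and reads of the last 3 may be shared, so these 3 are uncertain as separate genes.

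Several astroglial genes accompanied the neuronal ones in all 4 R libraries. Slc1a3 stood at 706, 375, 276 and 268 TPM in R1 to R4, against an N median of 18.7 TPM, and 2 N libraries, N11 (5746 TPM) and N15, were above the highest R value. Aldoc, the aldolase of astroglia, stood at 2263, 1788, 3563 and 2123 TPM, and Apoe, the lipid carrier, at 2960, 3491, 1521 and 2530 TPM, with N medians of 26.5 and 40.4 TPM and N maxima of 9040 and 21292 TPM in N11. Each of these 3 was at least 2 above every cluster mean, and the R libraries lay close together (SD 0.42 to 0.65). With log2 of mean TPM the differences were 0.38 for Slc1a3, 1.01 for Apoe and 1.81 for Aldoc, so none of the 3 was then called. Gfap, the filament of astrocytes, stood at 217, 680, 125.1 and 0.67 TPM, with R4 apart from the others. Slc1a2, the main astrocytic glutamate transporter, stood at 193, 437, 197 and 99.3 TPM. In the astrocyte list 4 of 10 compared members were higher and 0 lower, with a median difference of 1.41. The list mean was 3.14, 3.05, 5.34 and 1.45 in R1 to R4 and 0.41 to 7.47 in N, so the classes overlapped and R3 was the highest of the 4. R4 lay just below the N median of 1.47, and 2 of its list members reached a TPM of 10, against 4, 5 and 8 in R1 to R3. In the stem cell list 5 of 12 were higher (Aldoc, Apoe, Slc1a3, Gfap and Hopx), of which astrocytes express at least Aldoc, Apoe, Slc1a3 and Gfap. Of its other members, Nes and Hes5 were listed at 0 in all 4 R libraries, and Sox2 reached 1.23 TPM in R1 alone. C medians for Slc1a3 and Aldoc were 3964 and 4888 TPM, above every R value. The C median for Apoe, 3154 TPM, lay within the R range, and that for Gfap, 50.2 TPM, below R1, R2 and R3.

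The myelin gene Mbp was present in all 4 R libraries, and 4 precursor genes were lower than in N. Mbp stood at 478, 771, 900 and 1738 TPM, and 4 N libraries (N20 highest, 17558 TPM) were above the highest R value while the N median was 9.91 TPM. The difference was 5.57 on the mean of log2 values and -0.87 with log2 of mean TPM, so its direction depends on that choice. Mog, Opalin, Aspa and Ugt8a were at or under 1.10 TPM in every R library. In the oligodendrocyte list 1 of 12 was higher (Mbp) and 1 lower (Cnp), with a median difference of -0.61. In the precursor list 4 of 9 were lower in R (Olig1, Olig2, Gpr17 and Sox10) and 0 higher, against 4.92% of all genes lower. The list median was -3.92 and -3.12 against clusters 1 and 5, and between -0.23 and -0.10 against clusters 2, 3 and 4. Other members were present in single R libraries, Pdgfra at 119.5 TPM in R3 and Lhfpl3 at 103.6 TPM in R1. Olig1, the lineage's transcription factor, was at or under 0.83 TPM in R and reached 1744 TPM in N24, and Sox10 was listed at 0 in all 4.

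Microglial and blood genes differed among the R libraries. In the microglia list 3 of 5 compared members were higher, P2ry12 and Ctss among them, and 0 lower, with a median difference of 2.21. P2ry12, a purine receptor of microglia, stood at 977 TPM in R1 and 265 TPM in R3 and was listed at 0 in R2 and R4, with at most 3.93 TPM in N. R3 had 6 microglial members at a TPM of at least 10, among them C1qb (343 TPM), Csf1r (281 TPM) and Tyrobp (124.3 TPM), although Tyrobp reached 8563 TPM in N4. The microglia list mean was 3.78 in R3 and 1.51 in R1, both above every N library (highest 1.23). In R2 that mean was 0.67 and in R4 it was 0.81, both within the N range. Cx3cr1, the fractalkine receptor of microglia, stood at 1.23, 3.40, 0.15 and 0 TPM in R1 to R4 against an N median of 6.75 TPM, a difference of -1.99. In the erythroid list 1 of 4 was higher (Hba-a1) and 0 lower, with a median difference of 1.72. The difference of Hba-a1 was 3.68, and -3.53 with log2 of mean TPM, so its direction depends on the averaging. In R1 the globin gene Hba-a1 stood at 1033 TPM, and in R2 at 441 TPM, whereas N26 had 108385 TPM. Globin copies share reads, so their values are uncertain.

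Vascular genes were listed at 0 or low for the most part. Cldn5, Flt1, Pecam1, Tek and Esam were listed at 0 in all 4 R libraries, although Ly6c1, a surface antigen of endothelial cells, stood at 1370 TPM in R1 and 720 TPM in R3. In the endothelial list 0 of 9 compared members were higher and 3 were lower (Itm2a, Slco1a4 and Esam). Its median difference was -1.78; it was -5.69 against cluster 2 and lay between -0.13 and 0 against the other clusters. In the mural list 0 of 7 were higher and 2 lower (Acta2 and Tagln). The median against cluster 4 was -9.91, and Acta2, smooth muscle actin, was at or under 0.94 TPM in R against 27614 TPM in N14. Against the other 4 clusters the mural median lay between -1.09 and -0.11. The fibroblast list and the list for ependyma and choroid plexus each had 1 compared member, neither higher nor lower.

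**Figure D4:**
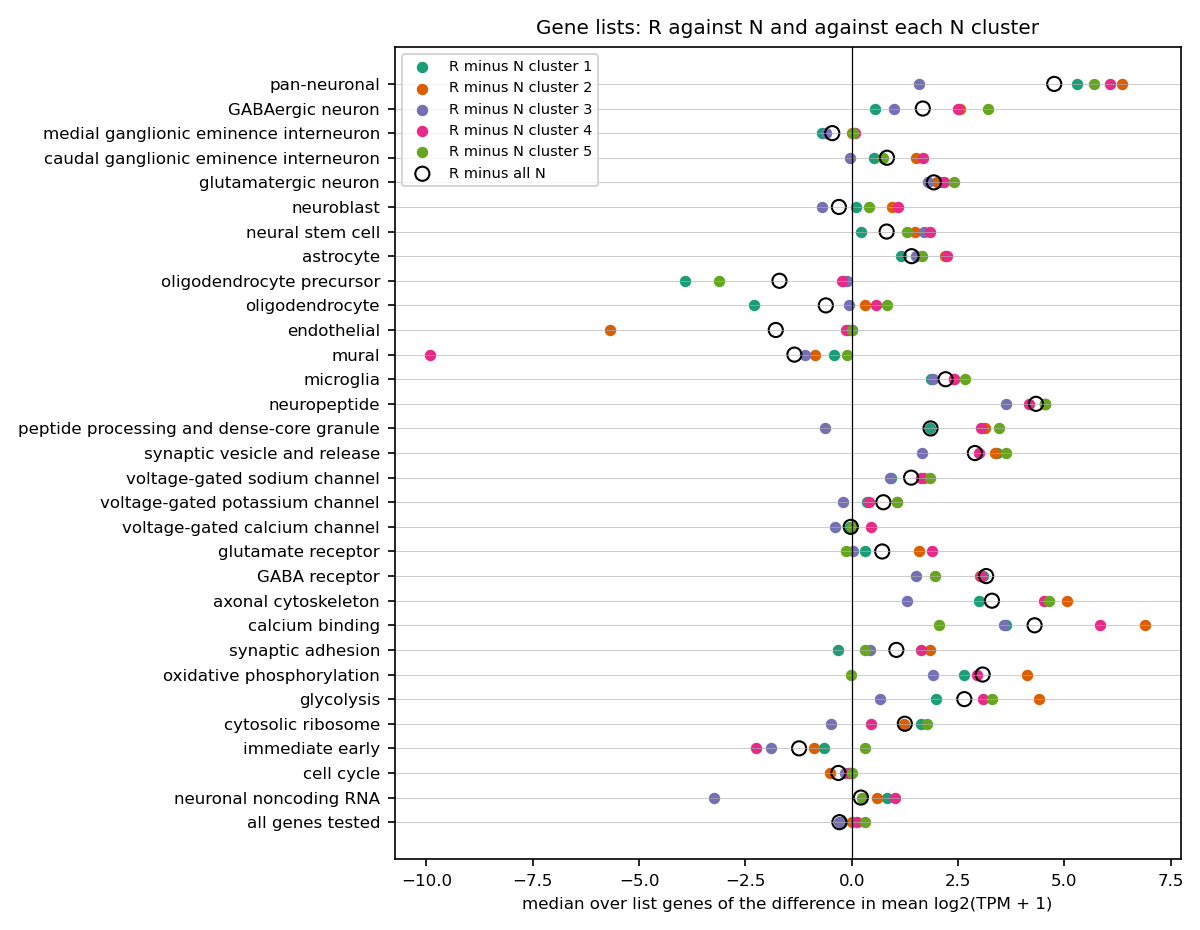
Median, over the members of each list, of the difference in mean log2(TPM + 1) between R and all N libraries (open circles) and between R and each N cluster (filled points), for lists with at least 5 compared members and for all genes tested. Pan-neuronal genes differ least from cluster 3 (1.58), endothelial genes most from cluster 2 (-5.69) and mural genes most from cluster 4 (-9.91).

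On the mean of log2 values, energy metabolism genes were higher in R. In the oxidative phosphorylation list 22 of 30 compared members were higher and 1 lower (Uqcrfs1), with a median difference of 3.08, and the list mean was 7.77 to 9.15 in R against 1.11 to 7.92 in N. Only N19 reached that range. Atp5o, a subunit of ATP synthase, stood at 1794, 2366, 1838 and 4087 TPM, with an N median of 82.8 TPM. In the glycolysis list 11 of 14 were higher and 0 lower. Aldoa, the aldolase of muscle and brain, stood at 10143, 5773, 6702 and 9154 TPM, all above the highest N value of 5153 TPM (N19). Gapdh stood at 4668, 4653, 3674 and 4227 TPM in R, and in N it ran from 6.24 to 7307 TPM with a median of 1362 TPM. Mean TPM in R and N was 4305 and 1836 for Gapdh, 2521 and 676 for Atp5o, and 7943 and 1143 for Aldoa. With log2 of mean TPM, Aldoa, Pgk1 and Ndufc1 kept the call, and Gapdh, Atp5o, Ndufa1 and Ldha did not. Against cluster 3 the medians of these 2 lists were 1.92 and 0.67, and against cluster 5, which is N1 alone, they were -0.03 and 3.29. Ribosomal protein genes differed less: 7 of 34 were higher, near the 13.9% of all genes, and 1 lower (Rps27a), with a median difference of 1.25 that was -0.49 against cluster 3. Rps24 turned from 3.05 to -0.02 with log2 of mean TPM, and ribosomal genes share reads with pseudogenes.

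Of the nuclear and activity-dependent transcripts, Malat1, Fos and Dusp1 were lower in R. Malat1, a long noncoding RNA kept in the nucleus, stood at 227, 461, 232 and 521 TPM in R1 to R4. In N it ran from 262 to 16543 TPM with a median of 3675 TPM, and 23 of 26 N libraries were above the highest R value. The difference was -3.12, with an R mean of 8.40 ± 0.63 (SD, n = 4) and an N mean of 11.51 ± 1.78 (SD, n = 26). Neat1, another nuclear RNA, was listed at 0 in all 4 R libraries and in 13 of 26 N libraries. Meg3, a neuronal noncoding RNA, stood at 13.4, 0.13, 103.5 and 384 TPM in R. Its R mean of 4.83 on the log2 scale lay 1.62 above the N mean, below the cluster 3 mean of 8.44 and above those of clusters 2 (0.69) and 4 (0.51). In the neuronal noncoding RNA list 0 of 6 were higher and 1 lower (Malat1), with a median difference of 0.22. For the immediate early list, whose members are transcribed within minutes of stimulation, the median difference was -1.24, with 2 of 12 compared members higher and 2 lower (Fos and Dusp1), against 13.9% and 4.92% of all genes. Fos stood at 8.97, 0.83, 1.52 and 0.87 TPM in R and reached 9244 TPM in N17, and Junb, Nr4a1 and Ier2 were listed at 0 in all 4 R libraries and reached a TPM of 1 in 4, 11 and 5 N libraries. Arc and Npas4, also listed at 0 in R, reached it in 1 and 0 N libraries, so these rows do not tell R and N apart. The higher members were Btg2, at 659, 221, 0.76 and 1017 TPM, and Jun, at 74.7, 0, 52.3 and 22.5 TPM. Cell cycle genes did not separate the classes: 0 of 13 were higher or lower.

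Also outside the lists, the genes furthest below N among those present in many N libraries were Xkrx, Sept2, B2m, Gm17644, Zfp488, Ctla2a, 4930470H14Rik, Psma1, Olfr856-ps1 and Dynlt1f. Xkrx stood at 1.50, 1.15, 1.04 and 1.77 TPM in R, and 25 of 26 N libraries were above that range (median 173 TPM). Sept2, a septin of the cytoskeleton, stood at 7.20, 1, 0 and 0.52 TPM against an N median of 267 TPM. Both were at least 2 below every cluster mean. B2m, the light chain of MHC class I, was at or under 4.77 TPM in R and reached 25429 TPM in N5. Its cluster 3 mean of 1.38 was close to the R mean of 1.16, and the other clusters had 5.62 to 11.26.

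The 4 R libraries were compared with each other and with N by Spearman's rho across the 10016 genes, given as a description, since genes are not independent replicates and all pairs share protocol and many zeros. The 6 R pairs had rho values from 0.30 to 0.35 with a median of 0.32. Pairs of 1 R and 1 N library ran from 0.14 to 0.37 with a median of 0.23, and the 325 N pairs from 0.15 to 0.37 with a median of 0.25. The 10 N pairs within cluster 3 had a median of 0.30, and their range overlapped that of the R pairs. By cluster, the median rho of R was 0.25 with cluster 3, 0.23 with clusters 1, 4 and 5, and 0.19 with cluster 2. The nearest N library was N19 for R1 (0.27) and for R2 (0.27), N8 for R4 (0.25) and N5 of cluster 2 for R3 (0.37). R3 had a higher rho with N5, N19 (0.35) and N22 (0.34) than with any other R library (highest 0.33, with R1). R1, R2 and R4 each had a higher rho with every other R library than with any N library. With the mean of all N libraries, rho was 0.23 to 0.36 in R and 0.16 to 0.39 in N, so the ranges overlapped.

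**Figure D5:**
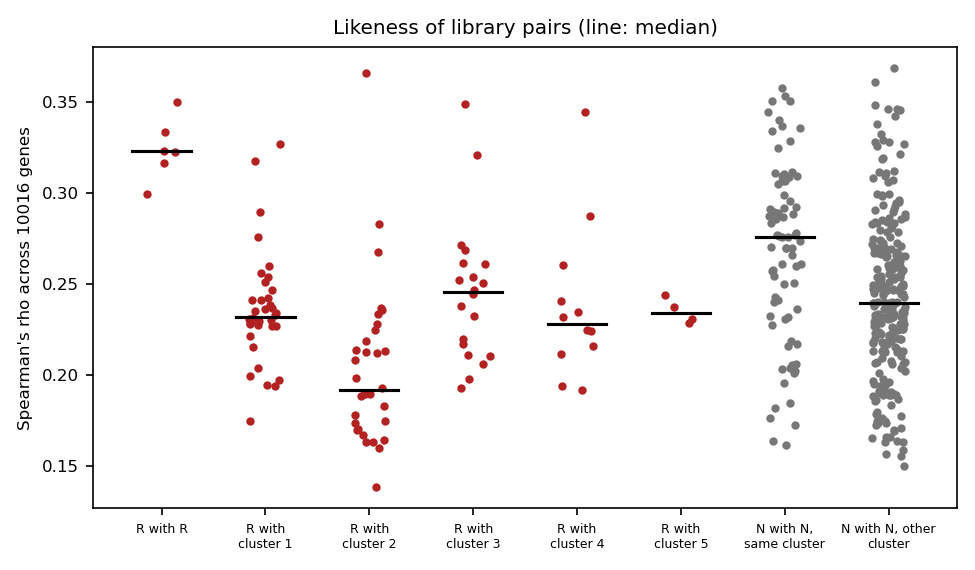
Spearman's rho across 10016 genes for pairs of libraries, 1 point per pair, with a line at each median. The 6 R pairs (0.30 to 0.35) lie above most pairs of R with N (median 0.23), and R with cluster 2 has the lowest median (0.19).

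Within R the libraries were distinct in the list genes they held. By the distance above the other 3, R1 stood apart in Lhfpl3 (103.6 TPM), Syn1 (61.5 TPM) and Stxbp6 (130 TPM). R2 stood apart in Syngr1 (793 TPM), Grik2 (447 TPM) and Klc1 (265 TPM). R3 stood apart in Scn3b (392 TPM), Gjb6 (334 TPM) and Rgs5 (323 TPM), a sodium channel subunit, an astrocytic connexin and a pericyte regulator. R4 stood apart in Lrrtm1 (1782 TPM), a synaptic adhesion protein, and without R4 its difference from N was -0.60. Of the 10016 genes, 733 were at a TPM of at least 1 in all 4 R libraries, 945 in 3, 1708 in 2, 2933 in 1 and 3697 in none.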

How the data were processed

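The authors deposited TPM per gene for every library, estimated with RSEM on build mm9 of the mouse genome, per the submitters' processing notes. For the aligner, annotation, versions and cell filters the sources used here give nothing. RSEM divides reads that fit several genes, so values of gene copies are uncertain. TPM keeps no depth, so no count test or counting interval could be had, and its precision is unknown. Column C27 fits 2 of the 173 titles and was used as a C library.

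Computed here (Python 3.11.15, pandas 2.3.3, numpy 2.4.6, scipy 1.17.1): log2(TPM + 1), which understates differences of low genes, with a filter of TPM at least 1 in at least 3 of the 30 libraries. A call is a difference of class means of at least 2. The N libraries were clustered by Ward's method (5 clusters, 10 principal components, 1000 most variable genes, without list genes and eCFP). Of 445 genes in 33 lists (16 of cell types, 17 of processes), 443 were in the table and 345 compared. The members, lists and rules were chosen with earlier results of these data known. Named genes are 27 set genes; the 3 members of each list with the largest absolute difference; 10 highest and 10 lowest genes outside the lists; the 10 widest gaps; and 3 genes per R library; some of these genes are not reported here. Other list members were named after their values were seen, and marker lists per library, the co-detection trio and rho with the mean of N were added after the data were seen. The scripts were tested on simulated R libraries drawn around the typical N level, without added zeros. That test checks the code and cannot show how calls behave in libraries with many zeros. Alternatives changed the pseudocount, filter, scaling, averaging, call threshold, clustering and libraries left out. Promoter sequence came from RefSeq (GRCm38.p6); no coordinates of the data were used.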

Additional observations from a re-analysis of the deposited data

Results flagged for a closer look

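Among the named genes, 27 had an R library far from the other 3 on the log2 scale: its gap to the nearest other was a large part of the range of the 4. By chance about 1 in 20 groups is picked out this way, and where 3 libraries are at or near 0 any other value is picked out, however small. That rate does not apply to genes named because 1 R library stood furthest above the other 3. Among the 27 these were Lhfpl3, Syn1, Syngr1, Grik2, Klc1, Scn3b, Gjb6, Rgs5 and Lrrtm1, which that choice made likely to be picked out. In each case the value given is that library's TPM.

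R1 stood apart in Arf3 (1700 TPM), Lhfpl3 (103.6 TPM), Syn1 (61.5 TPM), Sox4 (0.98 TPM) and Gm17644 (0.90 TPM). R2 stood apart in Nefm (351 TPM), Syngr1 (793 TPM), Grik2 (447 TPM), Klc1 (265 TPM) and Col1a2 (40.6 TPM) on the high side and in Rrp1 (323 TPM) on the low side. R3 stood apart in Scn3b (392.3 TPM), Gjb6 (334 TPM), Rgs5 (323 TPM), Ctla2a (3.46 TPM), Acta2 (0.94 TPM), Psma1 (0.61 TPM), Olig2 (0.25 TPM), Myh11 (0.16 TPM), Slco1a4 (0.15 TPM) and Reln (0.13 TPM) on the high side, and in Cacna2d1 (listed at 0 TPM) on the low side. R4 stood apart in Lrrtm1 (1782 TPM), Dcx (142.4 TPM) and Mcm7 (2.20 TPM) on the high side, and in Gria2 (2.92 TPM) and Ldha (listed at 0 TPM) on the low side. Nefm, Arf3 and Rrp1 were high in all 4 R libraries.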

How the results depend on the processing

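No paired analysis was possible because the results come from no test and the title numbers only follow the eCFP order. Lower calls depended most on the settings: 4.92% of genes became 15.3% with a pseudocount of 0.1, 0.76% with 10, 8.43% without the 7 N libraries with the fewest genes, 42.4% with log2 of mean TPM and 1.24% at a call of 3. Higher calls (1394) became 705 with a pseudocount of 10 and 769 at a call of 3. The share of calls that were higher was 73.9%, and 57.03%, 90.3%, 61.4%, 24.4% and 86.1% under those 5 settings in the order of the lower calls. Genes above every cluster (534) became 243 with a pseudocount of 10. Genes below every cluster (0.14%) became 1.12% and 0.030% with the smaller and larger pseudocount, 1.16% without the low-gene N libraries, 0.42% with 4 clusters, 0.30% with 2000 variable genes, and 0.17% to 0.40% with an R library left out. Genes wholly below N (0) became 2 with median-ratio scaling, 9 without the low-gene N libraries and 0 to 2 with an R library left out, while those wholly above N (21) became 33 to 38. Both counts could hardly fall when libraries were left out, since a range over fewer libraries cannot widen. List members called lower became 43 and 4 with the smaller and larger pseudocount, 27 without the low-gene N libraries and 87 with log2 of mean TPM, where 84 were called higher. Median rho of R pairs was 0.30 without list genes and 0.39 over genes at a TPM of at least 1 in 15 libraries, and that of N pairs was then 0.19. Median marker lists per library were 9 in R and 7 in N at a minimum TPM of 1, and 4 and 1.5 at 100. Mbp (-0.87), Hba-a1 (-3.53) and Rps24 (-0.024) changed sign with log2 of mean TPM, and Lrrtm1 (-0.60 to 3.001 with an R library left out) did so without R4. The causes were not tested. Alternatives that used the marker TPM, the 15-library minimum and the low-gene N libraries for marker lists were chosen after seeing the data. Depth is unknown, so which zeros reflect it cannot be said.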

Other observations

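The library titles are numbered in the order of the eCFP value. From the first to the last title, eCFP fell at every step in C, at 25 of 25 steps in N and at 3 of 3 steps in R. The ends of the 3 classes were 33811 and 482 TPM in C, 1306 and 17.3 TPM in N, and 107.9 and 5.01 TPM in R. In eCFP, R2 to R4 were below every N library and R1 was within the N range.

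Some rows were above 0 in R and listed at 0 in every N library. Ttr, the thyroid hormone carrier of choroid plexus, stood at 477 TPM in R4 and was listed at 0 in R1 to R3. C1qa, a complement gene of microglia, stood at 30 and 56.1 TPM in R2 and R3. Col1a1, a collagen of fibroblasts, stood at 57.97 TPM in R3. These genes were named after their values were seen.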
